A study of Mus musculus with 18 samples.

Results

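The genes described here were silent in mouse liver by RNA-seq and nevertheless carried dimethylation of lysine 9 of histone H3 (H3K9me2) at a transcript start. They were selected on measured values. A gene belonged to the set when its mean level in the 2 wild-type (WT) refed RNA-seq libraries was under 1 CPM (counts scaled to a library total of 1000000) and an H3K9me2 ChIP-seq summit was called no farther than 1000 bp from any of its RefSeq transcript starts, both in WT fasted liver 2 and in WT refed liver 2. Of 15572 genes in the count table, 3826 were under the limit of 1 CPM, 3814 of these could be placed on the genome, and 397 met both conditions. The WT level and the summits in those 2 livers are therefore part of the definition and are given as a description.

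The study examined chromatin accessibility, H3K9me2 and gene expression in liver of c57bl/6j mice kept on chow for 6 to 8 weeks, either WT or with a liver-specific knockout of the histone demethylase JMJD1C (JMJD1C-LKO), in which Cre recombinase is driven by the albumin promoter. H3K9me2 ChIP-seq was made from 2 WT fasted and 2 WT refed livers, ATAC-seq from the same WT groups and the JMJD1C-LKO refed group with 2 livers each, and RNA-seq from refed mice only, with 2 libraries for each genotype. The labels give every sample the same treatment, an overnight fast and then a high carbohydrate diet for 6 h, so that fasted and refed were read from the sample titles. Each ChIP-seq and ATAC-seq sample was a single liver and each RNA-seq library was made from pooled RNA, and H3K9me2 ChIP-seq of JMJD1C-LKO liver was not analysed here.

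H3K9me2 is written mainly by the methyltransferases G9a and GLP and is best known from silent chromatin, where it lies in broad domains over genes that are not transcribed. JmjC-domain demethylases remove it. In liver, as in other tissues, a promoter that lies between a pair of genes on opposite strands is called bidirectional, and 1 gene of such a pair can be active while the other gives little RNA.

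The sequences below are promoters of members from the GRCm38.p6 (mm10) genome, written 5′ to 3′ on the strand of the member, with each CpG in capitals and all other bases in lower case. The first 4 are whole stretches between the start of a silent member and the start of an expressed gene on the other strand, and are shown because that arrangement was the most frequent one in the set. They were taken from divergent pairs whose stretch had at most 300 bases and lay outside every annotated transcript. Among those pairs Gm20337 and Mkln1os came first by H3K9me2 rank, and Lpxn and 2900009J06Rik by p in the RNA-seq comparison. Fam46c and Hist1h4d stand for members with no expressed start nearby and are given as the 150 bases before the start. None of the 6 overlaps an annotated transcript.
Gm20337 to Srsf5 (chr12:80945400-80945498, minus strand, 99 bases, 8 CpG): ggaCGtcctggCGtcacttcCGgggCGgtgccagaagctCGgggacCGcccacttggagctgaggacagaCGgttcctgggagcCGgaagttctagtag
Mkln1os to Mkln1 (chr6:31398774-31398827, minus strand, 54 bases, 5 CpG): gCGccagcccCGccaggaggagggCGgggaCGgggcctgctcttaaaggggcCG
Lpxn to Zfp91 (chr19:12796124-12796192, plus strand, 69 bases, 10 CpG): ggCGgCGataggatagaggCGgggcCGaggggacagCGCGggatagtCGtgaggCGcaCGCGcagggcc
2900009J06Rik to Ccnt2 (chr1:127774055-127774163, minus strand, 109 bases, 12 CpG): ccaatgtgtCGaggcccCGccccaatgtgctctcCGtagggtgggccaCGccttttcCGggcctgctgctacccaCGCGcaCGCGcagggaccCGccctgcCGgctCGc
Fam46c (chr3:100489193-100489342, minus strand, 150 bases, 23 CpG): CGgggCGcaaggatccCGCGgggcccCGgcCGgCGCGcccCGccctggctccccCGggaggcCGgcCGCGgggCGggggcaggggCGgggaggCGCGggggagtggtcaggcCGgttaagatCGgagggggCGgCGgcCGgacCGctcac
Hist1h4d (chr13:23581418-23581567, plus strand, 150 bases, 6 CpG): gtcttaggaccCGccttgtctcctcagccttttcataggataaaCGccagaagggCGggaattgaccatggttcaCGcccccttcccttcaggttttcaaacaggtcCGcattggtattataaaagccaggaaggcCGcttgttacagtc

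Silent genes of the count table rarely had H3K9me2 at the start. The table held no gene with fewer than 10 counts over its libraries together. Genes without reads are therefore absent from all shares of silent genes given here. The share was 10.4% of the 3814 silent genes (95% Wilson interval 9.48 to 11.4), against 71.1% of the 11733 genes at 1 CPM or more (70.3 to 71.9). It increased with the level, from 6.47% of 1004 genes under 0.1 CPM to 14.5% of 958 genes from 0.5 to 1 CPM and 90.5% of 1395 genes at 100 CPM or more. Genes are not independent replicates, and these intervals and all that follow cover counting error only. The members themselves had a median WT level of 0.341 CPM, with quartiles of 0.146 and 0.643, and together held 0.0162% and 0.0154% of the counts in the 2 WT libraries.

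Most members stood beside an expressed gene. Of the 397, 266 (67.0%, 62.2 to 71.4) had the start of another gene at 1 CPM or more within 1000 bp of their own, compared with 100 of the other 3417 silent genes (2.93%), 1673 of the 8340 expressed genes with H3K9me2 (20.1%) and 14.0% of all 15547 genes placed. In 197 of the 266 the nearest expressed start pointed away from the member on the opposite strand, in 54 it faced the member and in 15 it lay on the same strand. The 266 members had 264 different neighbours. Over the 266, the neighbour's level had a median of 23.7 CPM, and it was 10 CPM or more for 201 members.

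The rule itself lets a summit count for both starts of such a pair, since it asks only for a distance of 1000 bp. Seen from the silent genes, 266 of 366 with an expressed start nearby had H3K9me2 (72.7%, 67.9 to 77.0), whereas 131 of 3448 without one did (3.8%, 3.21 to 4.49). The share was 36.7% of 79 silent genes whose neighbour was at 1 to 5 CPM, 69.2% of 52 at 5 to 10 CPM, 84.7% of 189 at 10 to 100 CPM and 89.1% of 46 above that. It was 72.7% with a divergent, 74.0% with a facing and 68.2% with a same-strand neighbour, and the 3 intervals overlapped. All 264 neighbours had H3K9me2 in both livers themselves, and none of the 80 silent genes beside an expressed gene without it was a member, which the shared window builds in to a large part.

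**Figure D1:**
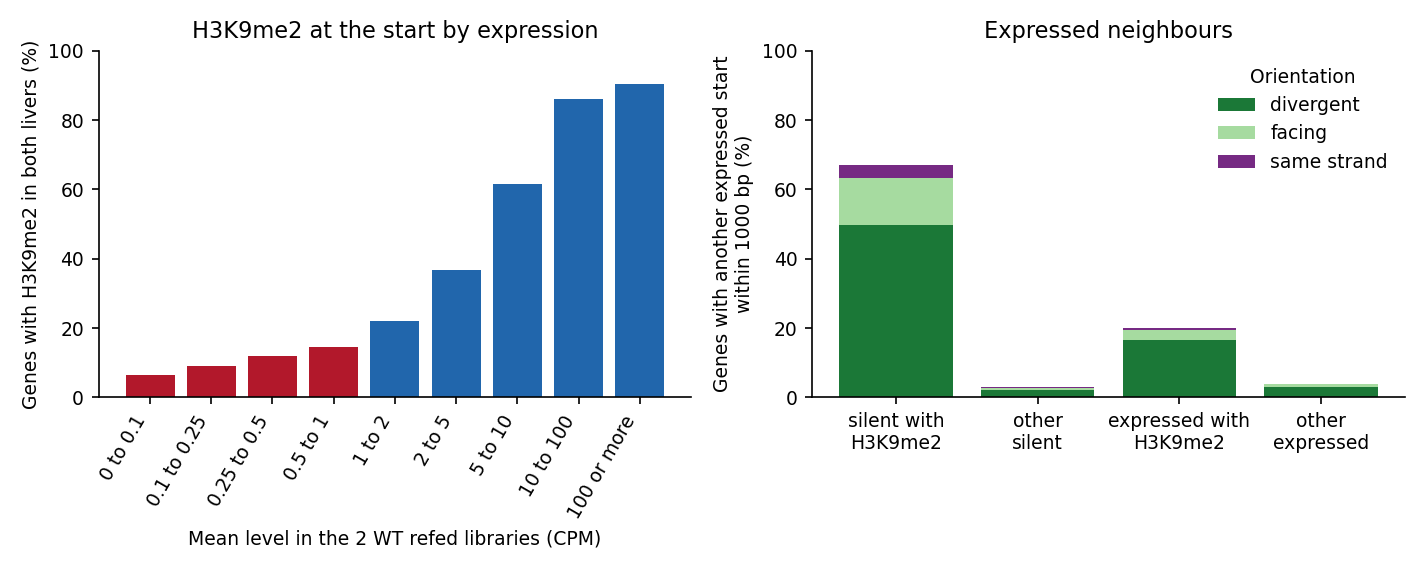
Left, percentage of genes with an H3K9me2 summit within 1000 bp of a start in both WT fasted liver 2 and WT refed liver 2, by mean WT level in CPM, with silent genes in red and expressed genes in blue. Right, percentage of genes in each of 4 classes with another expressed start within 1000 bp, divided by its orientation, which reaches 67.0% in silent genes with H3K9me2 and 2.93% in the other silent genes.

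The H3K9me2 summits of divergent members lay on the neighbour's side. In WT refed liver 2, the strongest summit was nearer the neighbour's start in 174 of 197 pairs (88.3%), and in WT fasted liver 2 in 180 (91.4%). Its median position was 406 bp upstream of the silent start and 259 bp downstream of the expressed start in the refed liver, and 373 bp and 222 bp in the fasted liver. For comparison, the summit at the 8340 expressed genes with H3K9me2 lay at a median of 268 bp downstream of their own start in WT refed liver 2. The 131 members with no expressed start nearby had it at a median of 204 bp downstream of their own start (quartiles 142 bp upstream and 293 bp downstream). In WT fasted liver 1, which the rule did not use, 139 of the 156 divergent members with a summit had it nearer the neighbour (89.1%).

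**Figure D2:**
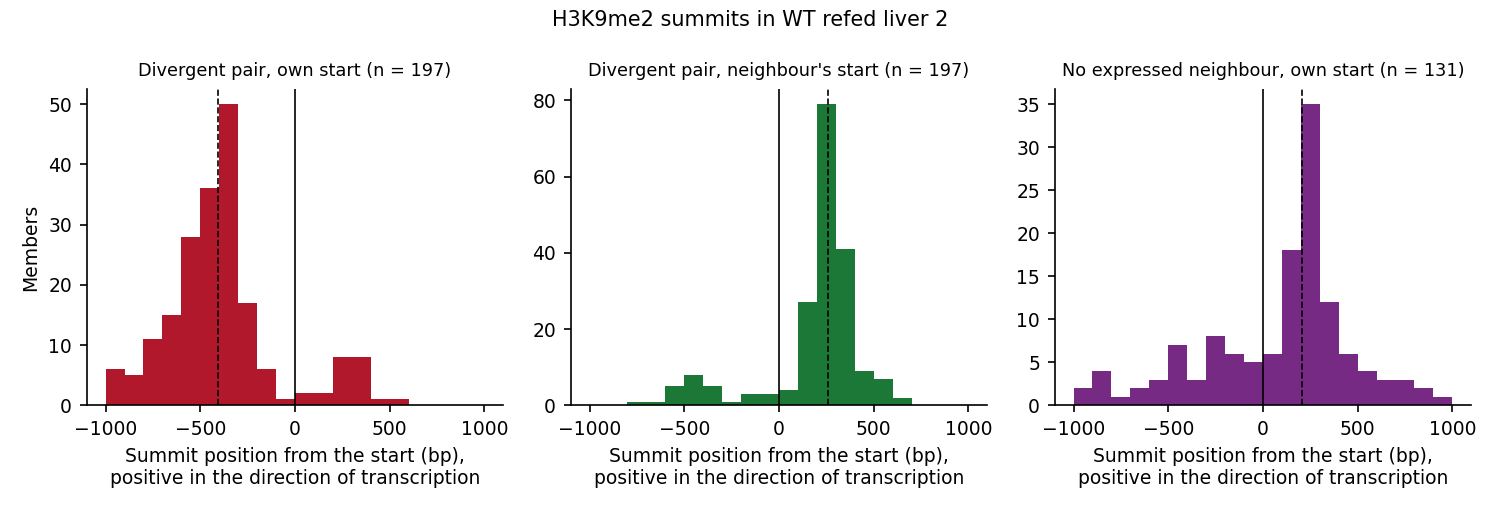
Histograms of the position in bp of the strongest H3K9me2 summit in WT refed liver 2, from the member's own start and from the neighbour's start in 197 divergent pairs, and from the own start in 131 members with no expressed neighbour, with 0 as a solid line and the median as a dashed line. Summits gather upstream of the silent start of a pair and downstream of the expressed start, and downstream of the own start where no expressed neighbour is present.

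The fasted and refed summits of a member were mostly the same position. They lay within 200 bp of each other in 352 of 397 members, with a median distance of 54 bp. The 397 members had 389 different summits in WT refed liver 2, since 16 members shared theirs with another member. Summit scores are the −log10 of a q-value and were compared by their percentile within each liver. The members' median percentile was 61.6 in WT fasted liver 2 and 44.7 in WT refed liver 2, against 70.5 and 58.9 for expressed genes with H3K9me2. Members with an expressed start nearby were at 73.4 and 55.5, and those without at 42.2 and 23.5. Over the members, the percentiles of the 2 livers had a Spearman rho of 0.804, which describes livers whose lists chose the members.

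The rule did not use the other ChIP-seq livers. The classes of genes compared in them were nevertheless defined by the same mark in the livers that it did use. Other silent genes are those that lacked a summit at the start in at least 1 of the livers used. A contrast between members and other silent genes is therefore partly built in, and how far was not tested. In WT fasted liver 1, 267 members had a summit at the start (67.3%, 62.5 to 71.7), with 47.3% over all genes placed, 0.527% of other silent genes and 81.3% of expressed genes with H3K9me2. The share was 81.2% of members with an expressed start nearby and 38.9% of those without, with intervals that did not overlap (76.1 to 85.4 and 31.0 to 47.5). WT refed liver 1 had a summit at 1 member, the histone gene Hist1h3f. That list held 1297 summits, against 7690, 13456 and 9929 in the other livers, and reached the start of 24 genes in the whole table, so its data say little about any member. No member had a summit in all 4 livers.

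By rank in the 2 livers used, the first member was Gm20337, a long noncoding RNA whose start lay 100 bp from that of Srsf5, a splicing factor at 255 CPM. Its summits stood 425 bp and 414 bp upstream of its start, at percentile 99.6 in the fasted and 100 in the refed liver. Its own level was 1.11 and 0.878 CPM in the WT libraries and 0.953 and 1.08 CPM in the libraries labelled JMJD1C-LKO, and these ranges overlap. Next came Stkld1, a kinase-like gene 545 bp from Surf4, a cargo receptor of the secretory pathway at 297 CPM. Snord104 and Snora3, small nucleolar RNAs that guide modification of ribosomal RNA, followed, and then 4930539J05Rik, which starts 36 bp from the ubiquitin-conjugating enzyme gene Ube2d3 at 167 CPM. The other 5 of the first 10 were 1700034P13Rik (facing Vcpip1), 2210406O10Rik (divergent from Grpel1), 4930528A17Rik (facing Pnisr), Snord32a (inside Rpl13a) and Mkln1os (divergent from Mkln1). Thus 8 of the first 10 lay within 1000 bp of an expressed start and the remaining 2 were small nucleolar RNAs.

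Member promoters were rich in CpG. In the window from 250 bp before to 50 bp after the start, the ratio of observed to expected CpG had a median of 0.834 (quartiles 0.672 and 0.977), against 0.416 in other silent genes (0.217 and 0.703) and 0.809 in expressed genes with H3K9me2 (0.648 and 0.938). The median was 0.879 in members with an expressed start nearby, whose window can reach into the neighbour's promoter, and 0.745 in those without. Among the 3448 silent genes with no expressed start nearby, the share with H3K9me2 was 0.693% of 1010 at a ratio under 0.25, 2.09% of 955 from 0.25 to 0.5, 5.61% of 766 from 0.5 to 0.75 and 8.51% of 717 above that. Median GC content was 62.3% in members and 55.3% in other silent genes.

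**Figure D3:**
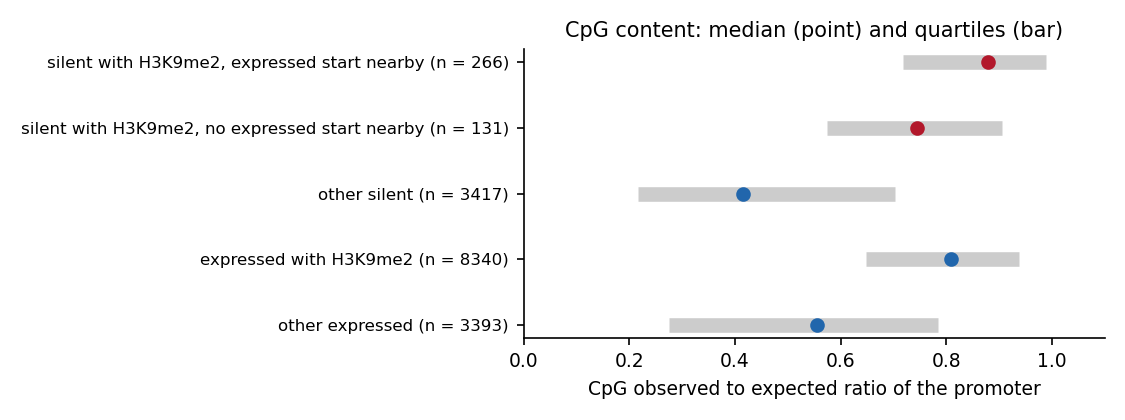
Median (point) and quartiles (bar) of the ratio of observed to expected CpG in promoters of 300 bases, by class of gene. Both groups of members lie near the expressed genes with H3K9me2, and the other silent genes are lower with a median of 0.416.

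Short motifs were counted on both strands of the same window. The GC box GGGCGG was present in 65.7% of members, 41.5% of other silent genes, 67.2% of expressed genes with H3K9me2 and 58.2% of all promoters. The cAMP response element TGACGTCA was present in 22 members (5.54%, 3.69 to 8.25) and 3.76% of expressed genes with H3K9me2 (3.38 to 4.2). It was in 1.64% of other silent and 2.89% of all promoters. The TATA box TATAAA was in 6.05% of members, 6.8% of expressed genes with H3K9me2 and 11.9% of other silent genes (8.49% of all). The E-box CACGTG, which USF-1 binds, was in 7.81% of members and 6.7% of other silent genes. Its share was 10.9% in expressed genes with H3K9me2 and 9.28% in all promoters. CCAAT was in 41.1% of members, 37.7% of other silent genes, 38% of expressed genes with H3K9me2 and 38.3% of all promoters. A match is a run of letters and not a measured site. CACGTG and TGACGTCA both hold ACGT, but neither holds the other.

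The set held 215 protein-coding genes, 153 long noncoding RNA genes, 12 transcribed pseudogenes, 10 small nucleolar RNAs, 3 microRNAs, 1 small Cajal body RNA (Scarna2), 1 further noncoding RNA (4930451G09Rik), the RNA component of RNase MRP (Rmrp) and telomerase RNA (Terc). Long noncoding RNAs made up 38.5% of members, 10.8% of other silent genes and 2.35% of expressed genes with H3K9me2. They were 128 of the 266 members with an expressed start nearby (48.1%) and 25 of the 131 without (19.1%). Rmrp, which takes part in processing of ribosomal RNA, started 306 bp from Ccdc107 and had 0.448 and 0.176 CPM in WT. Terc, the template RNA of telomerase, had no expressed start nearby and was at 0.0778 and 0.0390 CPM. The single genes of a class were named after their values were seen. Several small nucleolar RNAs lie in introns of highly expressed ribosomal protein genes, among them Rpl27a, Rpl23, Rpl32 and Rpl13a, and 126 members in all overlapped an expressed gene, so that reads of the 2 genes may have been split by the authors' counting.

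For reference, 10.4% of all silent genes were members, and 3.8% of those with no expressed start nearby. Replication-dependent histone genes, whose RNAs lack a poly(A) tail and peak in S phase, were members in 12 of 42 silent cases. Of the 12, 11 had no expressed start nearby. Their best ranks were held by Hist2h3c2 and Hist2h2aa2, which shared a summit in both livers at percentile 93.0 in the fasted and 67.4 in the refed liver, followed by Hist2h3c1, Hist2h2ab and Hist2h2ac. Near-identical histone copies share reads and their levels are uncertain. Genes with a Zfp symbol were members in 16 of 80 silent cases, 14 of them with no expressed start nearby. Most genes so named encode zinc finger proteins that repress transcription. The first by rank were Zfp81, Zfp786, Zfp652os, Zfp607b and Zfp457, of which Zfp652os is by its name an opposite-strand transcript. MicroRNA and small nucleolar RNA genes gave 14 of 64, and predicted, Riken clone and antisense genes 175 of 720, of which 144 had an expressed start nearby.

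Genes of mitosis and DNA replication were members in 41 of 104 silent cases, beside 10.4% of all silent genes. The list was drawn up after the set had been seen and is so no independent evidence. Of the 41, 23 had an expressed start nearby, all divergent. Examples were Zwilch, a kinetochore protein, beside the ribosomal protein gene Rpl4, and Cdca2 beside Kctd9, Kntc1 beside Rsrc2, Kif15 beside 1110059G10Rik and the replication factor Cdc45 beside Ufd1. Foxm1, a transcription factor of the G2/M programme and the 1 member among 28 silent developmental transcription factors, started 83 bp from Rhno1. Of the 18 without an expressed start nearby, 16 overlapped no expressed gene either.

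Several lists of genes, as far as they were in the count table, had no member. None of 28 silent homeobox genes, 64 ion channel genes, 34 secreted developmental ligands, 38 collagen and matrix genes, 23 immune cell markers, 10 olfactory and vomeronasal receptors, 4 markers of cholangiocytes, endothelium and stellate cells, 4 pancreas and red blood cell genes or 2 H3K9 methylation enzymes was a member, compared with 10.4% of all silent genes. The share was 3.8% of silent genes with no expressed start nearby, and the shorter lists could hold no member at either share. Depletion was not tested. Synapse and axon genes gave 1 of 55, Syn3, a synaptic vesicle gene with no expressed start nearby that overlaps an expressed gene. Germline and meiosis genes gave 3 of 26 (Spata1, Spata33 and Spata17) and cilium and dynein genes 4 of 40 (Ttll11, Dnaic1, Ccdc40 and Ccdc103). Of these 7, 6 had an expressed start nearby.

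Accessible chromatin was called at the start of a minority of members. ATAC-seq summits lay within 1000 bp of a start at 32.5% and 18.4% of members in the WT fasted livers, at 30.7% and 18.9% in the WT refed livers, and at 14.1% and 1.01% in the livers labelled JMJD1C-LKO. Both WT refed livers had one at 65 members (16.4%, 13.1 to 20.3), with 7.49% over all genes placed, 0.907% of other silent genes (0.640 to 1.28) and 11.4% of expressed genes with H3K9me2 (10.7 to 12.1). The count rests on WT refed liver 2, since 30.7% of members had a summit when WT refed liver 1 alone was counted. Both WT fasted livers had one at 62 members, both JMJD1C-LKO livers at 3, all 4 WT livers at 44 and any of the 6 at 176 (44.3%).

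For members with and without an expressed neighbour the intervals overlapped. A summit in both WT refed livers was found at 44 of 266 with an expressed start nearby (16.5%, 12.6 to 21.5) and at 21 of 131 without (16.0%, 10.7 to 23.3). The 12 best by H3K9me2 rank among the 65 were Stkld1, 4930539J05Rik, 1700034P13Rik, 2210406O10Rik, Styxl1, C330013E15Rik, 1700055D16Rik, Myl4, 2010109A12Rik, 5430402O13Rik, Wasf1 and BC049715, all with an expressed start nearby. Myl4, an atrial myosin light chain, starts 43 bp from Cdc27, and Wasf1, an actin regulator, 391 bp from Cdc40.

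ATAC-seq and H3K9me2 summits of a promoter mostly lay apart. In WT refed liver 1, the ATAC-seq summit at 75 divergent members lay at a median of 139 bp upstream of the silent start and 118 bp upstream of the expressed start, between the 2 starts or close to them. The H3K9me2 summit of WT refed liver 2 at the same members was 474 bp upstream of the silent start, and the 2 kinds of summit were a median of 436 bp apart, with 9 of 75 within 200 bp. At 34 members without an expressed start nearby, the ATAC-seq summit was 102 bp upstream and the H3K9me2 summit 223 bp downstream of the start, 386 bp apart, with 8 of 34 within 200 bp. Each ATAC-seq liver, fasted ones included, was measured against the H3K9me2 summit of WT refed liver 2. Over the 4 WT livers the median distance ranged from 378 to 447 bp at divergent members. It ranged from 230 to 386 bp at members without an expressed start nearby. The shortest was in WT fasted liver 1, with 14 of 39 within 200 bp.

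The number of summits called differed widely between livers, from 3119 to 7632 in the 4 WT livers against 1450 and 825 in the livers labelled JMJD1C-LKO. When only the 825 strongest summits of each liver were used, a summit was left at 27 and 26 members in the fasted livers, at 26 and 28 in the refed livers of WT mice, and at 24 and 4 in the livers labelled JMJD1C-LKO. Of the 2 livers labelled JMJD1C-LKO, 1 was thus close to the WT livers at an equal number of summits and the other below them. An exact two-sided permutation test of 2 livers against 2 cannot give a p below 0.333, and the JMJD1C-LKO livers were not tested against WT.

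**Figure D4:**
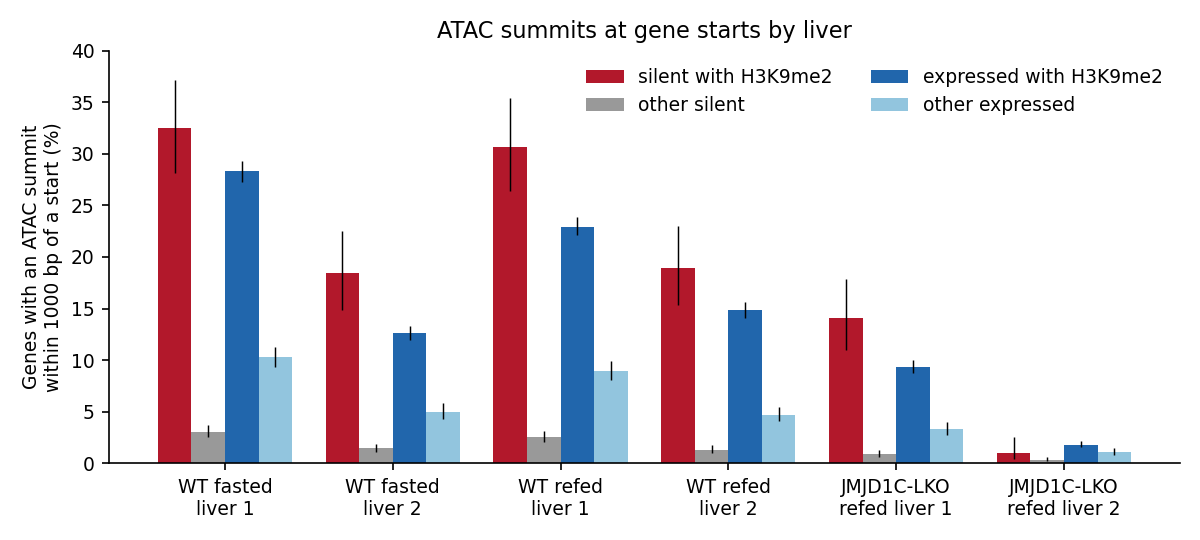
Percentage of genes with an ATAC-seq summit within 1000 bp of a start in each of 6 livers, by class of gene, with 95% Wilson intervals as error bars. Silent genes with H3K9me2 (red) had a larger share than other silent genes (grey) in each of the 6 livers. In the last JMJD1C-LKO liver it was 1.01% (4 members) against 0.322%, with overlapping intervals.

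The RNA-seq comparison asked whether members gained RNA in the knockout. The knocked-out gene was first examined as a check of the labels. Jmjd1c was at 22.2 and 23.2 CPM in WT and 19.3 and 20.8 CPM in the libraries labelled JMJD1C-LKO, a log2 fold change of -0.14 (SE 0.08, adjusted p = 0.23 by edgeR). The paper reports a strong decrease of Jmjd1c mRNA in JMJD1C-LKO liver by RT-qPCR and no detectable protein. These libraries do not show such a decrease. Whether counts over a whole transcript miss a deleted exon was not tested. This gene therefore leaves the labels unchecked, and the libraries are named by their labels throughout. Hepatocyte markers were abundant in all 4 libraries, with Alb between 72382 and 86810 CPM.

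Of the 397 members, 295 had enough counts to be tested with edgeR among 14151 genes. At an adjusted p under 0.05, 19 were higher in the libraries labelled JMJD1C-LKO (6.44%) and 2 were lower (0.678%). Over all genes tested 14.6% were higher and 13.4% lower, and over the 2100 other silent genes tested 14.4% were higher and 1% lower. The median log2 fold change was 0.25 in members, 0.39 in other silent genes, -0.06 in expressed genes with H3K9me2 and 0.01 over all genes placed. Because the rule caps the WT level in the same 2 libraries that enter the comparison, nothing is read from these shares, from the excess of higher over lower calls, or from which members passed the filter on low counts.

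The calls rested on few counts. They also moved when 1 library was left out, as did the calls over all genes, where a lone library stands for its group. With all 4 libraries, DESeq2 gave 9 higher and 0 lower of 258 members tested, beside 1720 higher and 1572 lower of 13760 genes. At an unadjusted p under 0.05, edgeR gave 38 higher and 10 lower, and DESeq2 gave 19 and 2. Markers of immune cells, none of them a member, had a summed level of 33.1 and 32.1 CPM in WT. In the libraries labelled JMJD1C-LKO it was 60.6 and 87.4 CPM. Of 25 tested, 12 were higher and none lower, beside 14.6% higher and 13.4% lower over all genes tested. Of the 27 listed, 1 was at 0 in WT library 1 and none in the other libraries. Of 17 markers of cholangiocytes, endothelium and stellate cells tested, 4 were higher and none lower. Any part of these cells in the members' RNA was not tested.

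Among the 19, the smallest p belonged to Fam46c, a noncanonical poly(A) polymerase with no expressed start nearby, whose promoter is printed above. It was at 1.03 and 0.878 CPM in WT and at 1.98 and 3.05 CPM in the libraries labelled JMJD1C-LKO, a log2 fold change of 1.43 (SE 0.28, adjusted p = 0.00561 by edgeR). Both knockout libraries lay above both WT libraries. Lpxn, a focal adhesion adaptor of blood cells that starts 70 bp from Zfp91, was at 1.09 and 0.644 CPM in WT and 2.18 and 2.52 CPM in JMJD1C-LKO, again without overlap (log2 fold change 1.47, SE 0.30). Lockd, a long noncoding RNA, went from 0.0518 and 0.104 CPM to 0.630 and 0.440 CPM (log2 fold change 2.77, SE 0.57). These levels stayed near or under 3 CPM, and the other 16 stayed under 2 CPM.

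Next by p were 2900009J06Rik (log2 fold change 1.77, SE 0.39), which diverges from the cyclin T2 gene Ccnt2, and Mgat5 (2.02, SE 0.50), a branching enzyme of N-glycans with no expressed start nearby. They were followed by 2810029C07Rik beside Mark3, Rad9b beside the retromer gene Vps29, the chromokinesin Kif4 beside Pdzd11, Prr11 with no expressed start nearby, 5033403F01Rik beside Slc35b3, Cbln3 beside Khnyn and Cdca8, a subunit of the chromosomal passenger complex, beside 9930104L06Rik. Prr11 had the largest log2 fold change of the 19 (2.94, SE 0.82) on levels of 0.156 and 0 CPM in WT and 0.389 and 0.809 CPM in JMJD1C-LKO. That value rests on WT library 2 with its level of 0, since it was 7.99 without WT library 1 and 1.95 without WT library 2, where Lockd was at 3.16. Of the mitosis and replication genes, 5 of 33 members tested were higher, Kif4, Prr11, Cdca8, Hmmr and Fancd2, and none was lower, beside 14.6% higher over all genes tested. Over the whole list of 145 genes tested, expressed ones included, 27 were higher and 8 lower. Hmmr and Fancd2 were named after their values were seen.

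The neighbours of the higher members were examined next. Of the 19, 13 had an expressed start nearby, beside 195 of the 295 members tested. All 13 neighbours were divergent, and 1 of them was higher and 2 were lower. Zfp91 fell where Lpxn rose, from 195 and 189 CPM to 146 and 155 CPM (log2 fold change -0.31, SE 0.08, adjusted p = 0.015 by edgeR). Nudcd2 beside Hmmr was also lower (-0.36, SE 0.11), and Khnyn beside Cbln3 was higher (0.50, SE 0.09). Over all 264 neighbours, 25 were higher and 39 lower, with a median log2 fold change of -0.06, beside 10.6% higher and 18.7% lower over expressed genes with H3K9me2. The counts among the 13 are too small to set apart from these shares. The remaining 6 higher members had no expressed start nearby and overlapped no expressed gene, out of 92 such members tested. Of the 19, 4 overlapped an expressed gene, among them 2900009J06Rik and 5033403F01Rik, beside 31.7% of all 397 members. An ATAC-seq summit in at least 1 liver was found at 8 of the 19, beside 44.3% of all members.

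Both lower members had no expressed start nearby. Hist1h4d, an H4 histone gene with near-identical copies, was at 0.763 and 0.299 CPM in WT and 0.164 and 0.0481 CPM in JMJD1C-LKO (log2 fold change -2.27, SE 0.69). Zfp455, a zinc finger gene, was at 0.944 and 0.608 CPM in WT and 0.376 and 0.222 CPM in JMJD1C-LKO, with a log2 fold change of -1.36 (SE 0.45) and an adjusted p at the threshold (0.05 by edgeR). Of the 12 Zfp members tested, 1 was lower and none higher, with a median of -0.49. Over all 401 Zfp genes tested 56 were lower and 13 higher, beside 13.4% lower and 14.6% higher over all genes tested. Of the 7 histone members tested, 1 was lower and none higher, and over the 35 histone genes tested 1 was lower and 1 higher.

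**Figure D5:**
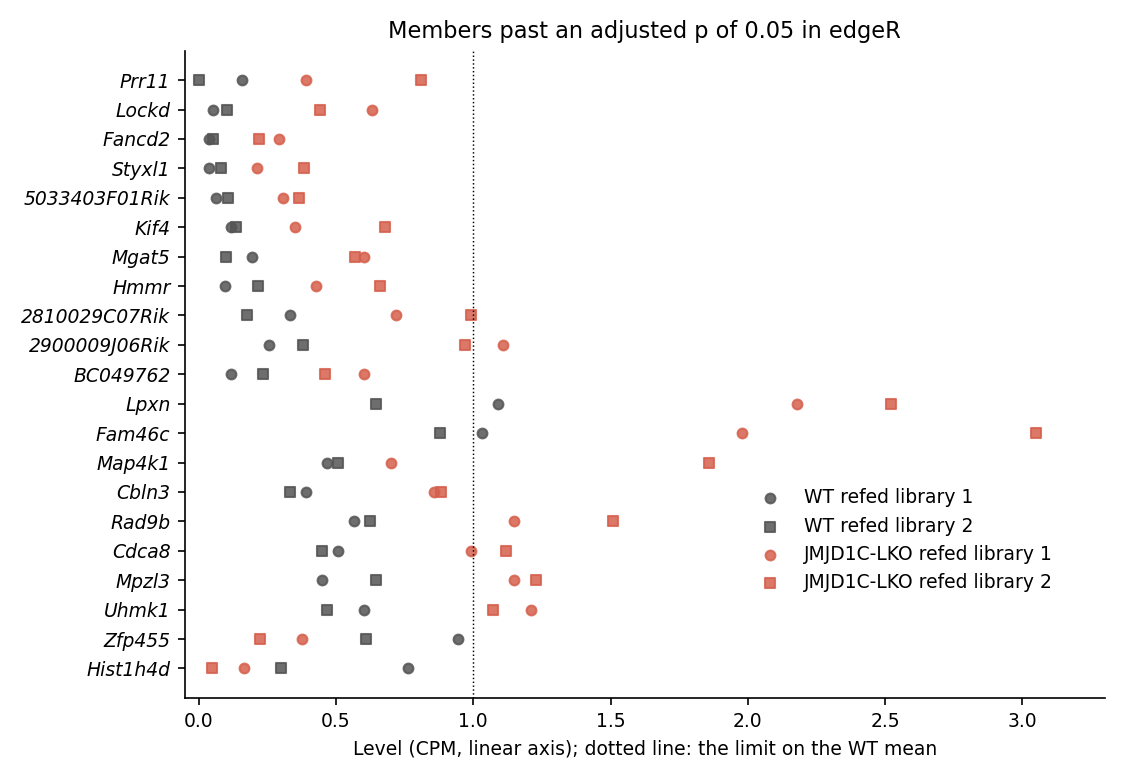
Level in CPM of the 21 members past the adjusted p in each of the 4 RNA-seq libraries, ordered by log2 fold change, with WT refed in grey and JMJD1C-LKO refed in red. In each of the 21 the 2 knockout libraries lie on 1 side of both WT libraries, and Fam46c and Lpxn were the 2 members above 2 CPM.

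Some genes lay just inside or outside the limits of the rule. The members nearest to 1 CPM were 2500002B13Rik (0.9995 CPM), Rwdd2a (0.9936) and Gm20337 (0.9935), and genes that passed on H3K9me2 but lay just above were Rsl1 (1.0202), Snx29 (1.0228) and Dpf3 (1.0324). The members whose farther summit was closest to the window's edge were Snord32a (994 bp), Actn3 (976 bp) and C230037L18Rik (966 bp), whereas Gm17801 (1004 bp), Hist1h2be (1005 bp) and Cd160 (1014 bp) fell just outside.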

How the data were processed

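The authors deposited RNA-seq values as estimated counts per RefSeq transcript, unscaled, with 51265128 to 54400509 per library, which sets the precision of levels under 1 CPM. HISAT2 and Partek are among the tools in the submitters' processing notes, and strandedness is not given in the sources used here. For ChIP-seq (Bowtie2, unique reads, input of the same replicate) and ATAC-seq (BWA), the authors called peaks per sample with MACS2 2.1.1 and deposited summits with the −log10 of the q-value. No peak widths or read depths were used here, so the depth behind a summit is unknown. A deposited table of the authors' own comparison (p-value, FDR, fold change) was not used.

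Counts were summed per gene and divided by the library total. Transcripts were placed by RefSeq identifier, then symbol or synonym, on GRCm38.p6 (391 members by identifier, 6 otherwise, 25 of 15572 genes not placed). Rounded counts were tested with the quasi-likelihood test of edgeR 4.0.16 (TMM, filterByExpr, Benjamini-Hochberg over 14151 genes), which was tested on simulated data, and with DESeq2 1.42.0 as an alternative. Replicates were separate samples of a group, and p-values measure the spread between 2 libraries of pooled RNA each. The members and gene lists were chosen with earlier results of these data known. Genes were named as the 10 best by mean percentile of summit score in the 2 ChIP-seq livers, up to 12 past the test in each direction by p, up to 12 with ATAC-seq summits in both WT refed livers, up to 5 per gene list, and those nearest the limits of the rule. Sequences are from RefSeq. Other normalizations, filters, windows and limits were tried.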

Additional observations from a re-analysis of the deposited data

How the results depend on the processing

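The number of members moved with the CPM limit, from 397 to 258 under 0.5 CPM and 614 under 2 CPM, and was 0 with ChIP-seq replicate 1 of both states and 0 in all 4 ChIP-seq livers. Members higher in JMJD1C-LKO moved from 19 of 295 tested to 36 of 512 under 2 CPM and 9 of 258 with DESeq2. They were 6 of 92 when members with an expressed start nearby or overlapping an expressed gene were left out. That choice was made after the data were seen, and the number tested differed between these settings. They ranged from 0 to 23 when 1 library was left out, where the lone library is assumed to vary like the others. Members lower moved from 2 to 1 with RLE size factors, with no filter and with a minimum of 10 counts in 2 libraries. They moved to 0 of 258 with DESeq2, 0 of 156 under 0.5 CPM and 4 of 512 under 2 CPM. The count of lower members also moved when 1 WT library was left out. ATAC-seq summits in both WT refed livers were at 16.4% of members (65), at 15.1% (39 of 258) under 0.5 CPM, 16.2% (19 of 117) with no expressed neighbour or overlap and 4.03% (16) with equal numbers of the strongest summits, and ranged from 18.9% to 30.7% with single livers. The other settings kept each count within 1.5 times. Of the 21 called members, 9 kept the call in every setting that used all 4 libraries, 3 had no adjusted p from DESeq2, none kept it without each library in turn, and none changed direction. With the replicate number as a block, 21 members were higher and 2 lower, beside 2211 higher and 1996 lower over all 14151 genes tested. WT library 1 and JMJD1C-LKO library 1 did not deviate together from their group means over genes (correlation -0.0046). With 2 libraries in a group, this cannot show whether same-numbered samples were paired. Depth limits the precision of levels under 1 CPM.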
